A study of Danio rerio with 4 samples.

Results

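The carboxypeptidases that trim peptide hormones, plasma peptides and matrix proteins were followed in zebrafish (Danio rerio) tail tissue at 3 days post fertilization, in fish mutated in both cpa1 and cpa5 and in their siblings. The set was the 7 genes of the deposited table with the symbols cpn1, cpm, cpe, cpda, cpz, cpxm1a and cpxm1b, out of 19924 rows, of which 17610 are Ensembl genes and 2314 are assembled transcript models. They belong to the M14 family of zinc carboxypeptidases, as do cpa1 and cpa5, and were chosen by name from the members outside digestion, some of which, such as cpb2 and cpa6, are not in the set. The study holds 4 RNA-seq libraries from the offspring of 1 pair of fish heterozygous at cpa1 and cpa5. The 2 control libraries are called siblings in their titles and WT in their genotype label, and whether siblings carry 1 mutant copy of either gene is not stated. The other 2 libraries come from double knockouts, and in each group the libraries carry the numbers 3 and 4. Heads were used for genotyping, and nothing in the labels says how many fish went into a library. The spread behind each p-value is therefore that of the libraries alone and may be technical in origin.

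Carboxypeptidases of this branch act after a protease has cut a precursor behind basic residues, and remove the lysine or arginine left at the end of the new peptide. In mammals carboxypeptidase E does this in the secretory granules of neurons and endocrine cells, and carboxypeptidase D does it earlier, in the trans-Golgi network. Carboxypeptidase N in human plasma and carboxypeptidase M on cell surfaces clip kinins and complement peptides, and carboxypeptidase Z carries a frizzled-like domain that binds Wnt proteins in the matrix. The CPX proteins have a discoidin domain and, in mouse, no enzyme activity has been found for CPX-1. The pancreatic A and B enzymes to which cpa5 belongs take amino acids from dietary peptides in the gut.

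Library totals ran from 24769258 to 35343524 counts, and the 7 genes together took 0.0165% to 0.0191% of them, with Wilson 95% intervals reaching from 0.0161% to 0.0197% that cover counting error only. The targeted gene cpa5 had 2079 and 397 counts for sibling replicates 3 and 4 against 19 and 15 counts for knockout replicates 3 and 4, below siblings in both knockout libraries. The gene cpa1 was not analysed here. Markers of skeletal muscle and epidermis were abundant, with summed levels of 55700 to 66643 and 9352 to 19505 CPM (reads per library total, normalized by TMM). Markers of hepatocytes were also read in every library, at 8448 and 11137 CPM for siblings against 5185 and 8296 CPM for knockouts. Of these sums the marker apoa2 alone made up 4055 and 5629 against 2435 and 4220 CPM. Markers of the exocrine pancreas were at 1131 and 137 CPM for siblings against 398 and 110 CPM for knockouts, each pair given as replicate 3 and then 4. In bulk samples such as these, fewer cells of a type and less RNA per cell cannot be told apart.

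Among the 7 genes cpn1 had by far the highest level per length. Its FPKM (the authors' value for fragments per unit of length and depth) was 34.2 and 40.4 in sibling replicates 3 and 4 and 37.2 and 40.6 in the matching knockouts. The prohormone-processing gene cpe came next at 6.35, 4.78, 7.28 and 5.26 FPKM, in the same order of libraries. It was followed by cpxm1a at 5.34, 3.62, 7.47 and 4.34 FPKM and by cpz at 3.79, 3.57, 5.36 and 3.49 FPKM. The levels of cpe and cpxm1a overlapped between libraries, and cpe was the higher in 3 of 4. Those of cpxm1a and cpz overlapped too, but within each of the 4 libraries cpxm1a was the higher. The membrane enzyme gene cpm was at 2.11, 1.88, 2.29 and 1.84 FPKM, below every library of cpz and above every library of the remaining genes. These were cpda at 1.43, 1.01, 1.69 and 1.04 FPKM and cpxm1b at 1.34, 0.738, 1.56 and 0.968 FPKM, which overlapped between libraries while cpda was the higher within each of the 4. In knockout replicate 3 the FPKM of cpda did not follow its count, as described below, so its rank in that library is uncertain. The paralogs cpxm1a and cpxm1b did not overlap, the first being higher by a mean of 5.19 against 1.15 FPKM over the 4 libraries.

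**Figure D1:**
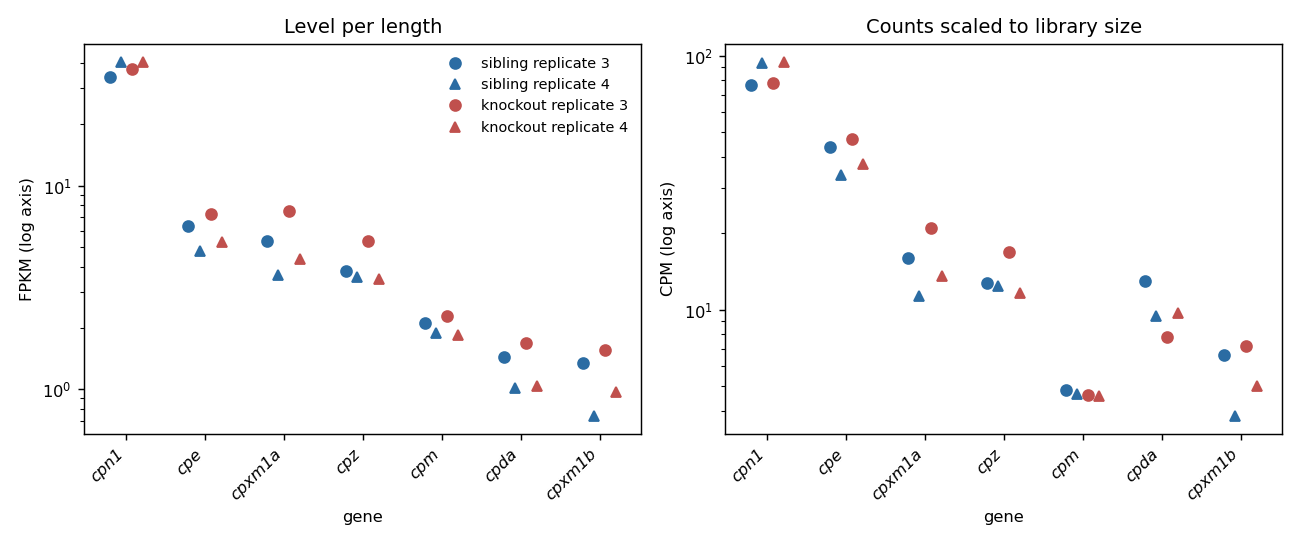
Levels of the 7 genes in each library, as FPKM on the left and as CPM on the right, both on log axes; each point is 1 library. cpn1 lies at 34.2 to 40.6 FPKM, above all other genes, and cpda lies below cpm on the left and above it on the right.

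No gene of the set passed the test of genotype. The edgeR quasi-likelihood test called 0 of the 7 genes, and 0% of all 19924 features, at adjusted p below 0.05. The targeted gene cpa5 did not pass in edgeR either, at a log2 fold change of -6.34 ± 1.17, while DESeq2 called it (adjusted p = 1.85e-10). A lack of calls in edgeR therefore does not show that a gene was unchanged. At an unadjusted p below 0.05 edgeR listed 0 of the 7 genes against 0.502% of all features, and DESeq2 called 0 of the 7 against 0.0954% of all features. Log2 fold changes of knockout over sibling lay between -0.35 for cpda and 0.34 for cpxm1a, with 5 of the 7 above 0 and a median of 0.12, where all features had a median of -0.01. Some of these signs changed with a library left out, but such a fit sets 2 libraries against 1 and mixes genotype with replicate number. Without knockout replicate 3 only cpn1 stayed above 0 and the median was -0.05. Without sibling replicate 4 the median was -0.04 with 3 genes above 0. Without knockout replicate 4 the median was 0.28, and without sibling replicate 3 it was 0.20, each with 4 genes above 0. With a term for replicate number in the fit over all 4 libraries the median was 0.12. On CPM with TMM factors the gene cpm was the 1 gene whose knockout libraries both lay below both sibling libraries, as 9.01% of all features did. None lay above in this way, against 8.72% of all features. Within both replicate numbers 4 of the 7 genes (cpn1, cpe, cpxm1a and cpxm1b) were higher in the knockout library, against 24.5% of all features, and 1 (cpm) was lower in both, against 26.4%.

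**Figure D2:**
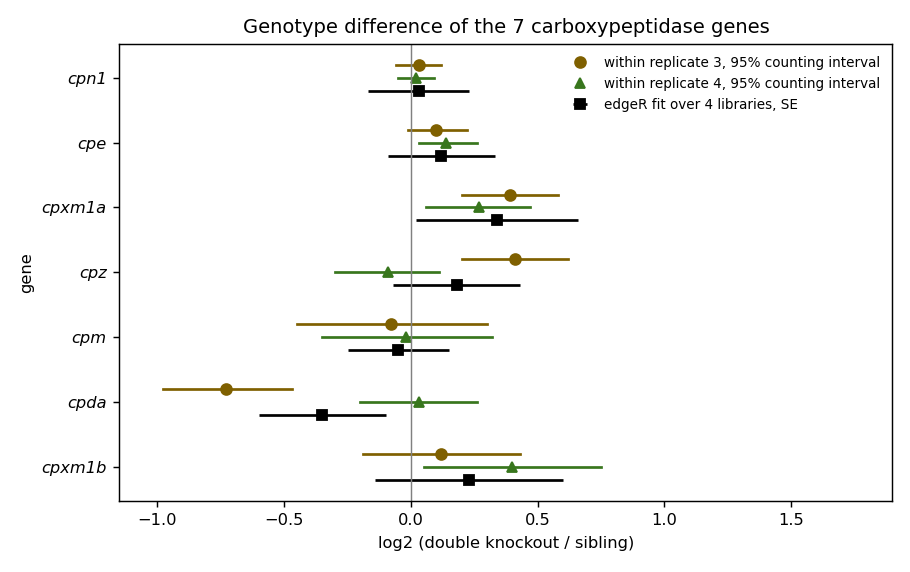
Log2 ratio of double knockout to sibling for each gene, within replicate 3 (circles), within replicate 4 (triangles), both with 95% intervals for counting error, and in the edgeR fit over 4 libraries (squares, with SE). The fitted values lie between -0.35 and 0.34, and cpda is at -0.73 in replicate 3 and at 0.03 in replicate 4.

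The plasma enzyme gene cpn1 (ENSDARG00000096728) codes for the catalytic chain of carboxypeptidase N. On counts it had the smallest fitted log2 fold change of the set in absolute value, with cpm next at -0.05. It had 1965 and 2944 counts for siblings against 2032 and 3267 counts for knockouts, or 76.6, 93.4, 78.4 and 94.7 CPM. Libraries with the same number were nearly level, and both groups covered the same range. The means were 85 ± 11.9 CPM for siblings against 86.5 ± 11.5 CPM for knockouts (SD, n = 2 each), and the log2 fold change was 0.03 ± 0.20 (SE; edgeR adjusted p = 1). Its 95% interval ran from -0.52 to 0.57. Within replicate 3 the ratio was 0.03, with a counting interval of -0.06 to 0.12, and within replicate 4 it was 0.02, with an interval of -0.05 to 0.09.

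The partner of cpn1 was lower in each knockout library than in the sibling of its number. In human plasma the catalytic chain is held by a larger regulatory chain, and the deposited table annotates zgc:153913 as carboxypeptidase N subunit 2; this gene and cpb2 are described after their values were seen. It had 51.9 and 81.9 CPM for siblings against 24.2 and 62.5 CPM for knockouts, replicate 3 first. The groups overlapped, and the log2 fold change of -0.63 ± 0.53 did not pass (edgeR adjusted p = 1). Its log2 CPM minus that of cpn1 was -0.56 and -0.19 in siblings and -1.69 and -0.60 in knockouts, lower in both knockout libraries. The exact two-sided permutation test of this difference gave p = 0.333, which is the smallest p that 2 against 2 libraries allow. The test could therefore not pass at 0.05, and it gives no support to a difference. The gene cpb2 codes for carboxypeptidase B2, the plasma enzyme that slows the dissolving of fibrin clots in mammals by taking lysines off fibrin. It was at 3.63 and 4.03 CPM for siblings against 1 and 2.32 CPM for knockouts, and its log2 fold change was -1.19 ± 0.46 (edgeR adjusted p = 1, interval -2.43 to 0.05). Without knockout replicate 3 the fold changes were -0.10 for zgc:153913 and -0.72 for cpb2.

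The surrounding genes of kinin, complement and fibrin chemistry had lower values in knockouts as a list, although 0 of the 22 measured members passed the test. The list was chosen with earlier results of these data known, and its genes may vary together. Counts over it are therefore a description and not a test. Of these 22 (32 were listed), 20 had a log2 fold change below 0, against 10389 of all 19924 features, and the median was -0.52. It was -0.93 within replicate 3 and -0.33 within replicate 4, -0.17 without knockout replicate 3, -0.31 without sibling replicate 4 and -1.21 without knockout replicate 4. Within both replicate numbers 14 were lower and 1 was higher in the knockout, against 26.4% and 24.5% of all features. In 4 genes both knockout libraries lay below both siblings and in 1 above, against 9.01% and 8.72% of all features. The list also differed by replicate number, with a median of 0.59 for replicate 4 over 3. In that fit 9 were called higher in replicate 4, against 6.99% of all features, and 3 lower, against 8.16%. The most abundant were the complement gene c3a.1 at 404 and 1211 CPM for siblings against 278 and 966 CPM for knockouts, the fibrinogen chain gene fgb at 218 and 405 against 107 and 290 CPM, and the fibrinogen chain gene fga at 251 and 450 against 134 and 351 CPM. Hepatocyte markers had fold changes below 0 in 12 of 13, but fga, fgb and fgg are in both lists, and of the other 10 markers 9 were below 0. All 13 had medians of -0.91 within replicate 3 and -0.36 within replicate 4, where cpn1 was at 0.03 and 0.02. The medians were -0.22 without knockout replicate 3 and -1.26 without knockout replicate 4. Within both replicate numbers 11 of the 13 were lower and 1 was higher, and single markers differed widely. Picked with their values known, fabp10a was at -5.92 and -0.08, ttr at -4.58 and 0.57 and hpxa at 0.33 and 1.48, replicate 3 first. The 6 markers of vascular endothelium had medians of 0.05 and 0.00. Some other marker lists were near 0 too, so this was not particular to endothelium. The medians were 0.02 and 0.02 for fibroblast and fin mesenchyme, -0.03 and -0.01 for epidermis and 0.07 and 0.04 for skeletal muscle. Summed epidermis levels were nevertheless lower in knockouts, at 13597 and 19505 CPM for siblings against 9352 and 16893 CPM. Low medians were not particular to hepatocyte markers either. They were -1.59 and -0.33 for exocrine pancreas and -0.70 and 0.12 for intestine, while neutrophil markers were at 0.37 and 0.17. Whether the content of liver tissue in a library plays a part in the values of zgc:153913 and cpb2 was not tested.

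**Figure D3:**
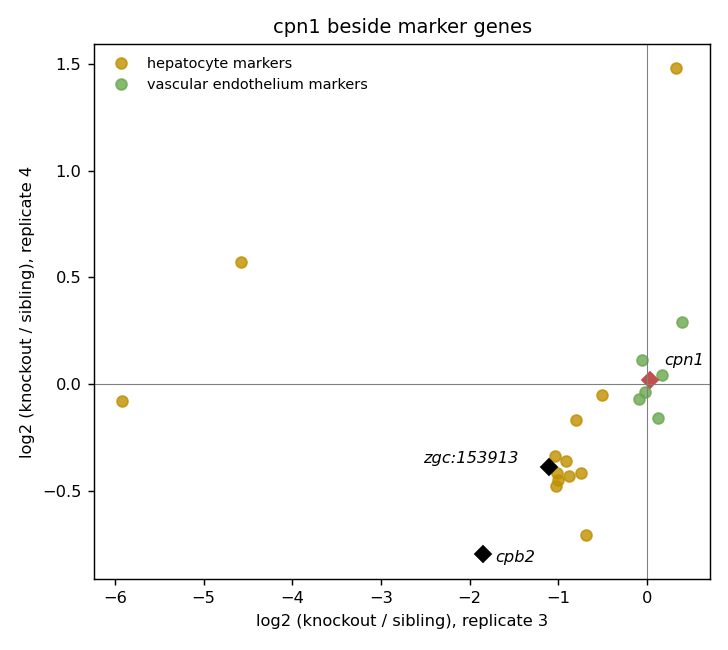
Log2 ratio of knockout to sibling within replicate 3 (horizontal) and within replicate 4 (vertical) for cpn1, for zgc:153913 and cpb2, for 13 hepatocyte markers and for 6 vascular endothelium markers; each point is 1 gene. cpn1 lies near 0 on both axes, and zgc:153913 lies at -1.10 and -0.39, below 0 on both.

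The second enzyme that works outside the cell on plasma peptides, carboxypeptidase M, is held to the cell surface by a lipid anchor. Its gene cpm (ENSDARG00000011769) had 124 and 146 counts for siblings against 119 and 158 counts for knockouts. This gave 4.83 and 4.63 CPM for siblings against 4.59 and 4.58 CPM for knockouts. Both knockout libraries were thus below both siblings, by at most 0.08 on the log2 scale within a replicate number. This separation depended on the TMM factors. With scaling by library totals alone the groups overlapped, and the log2 fold change was -0.01 ± 0.22. The counting intervals were -0.45 to 0.30 within replicate 3 and -0.35 to 0.32 within replicate 4, and the log2 fold change was -0.05 ± 0.20 (edgeR adjusted p = 1, interval -0.59 to 0.50). On the log2(FPKM + 1) scale the sign turned, to 0.03 ± 0.16 in limma. Within replicate 3 the log2 ratio was 0.12 on FPKM against -0.08 on counts, and within replicate 4 it was -0.03 against -0.02. The 5 measured macrophage markers, a cell type in which human CPM is found, had a median of 0.03.

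Carboxypeptidase E finishes peptide hormones and neuropeptides in granules. Its gene cpe (ENSDARG00000055874) had 1116 and 1073 counts for siblings against 1213 and 1299 counts for knockouts, or 43.5, 34.0, 46.8 and 37.6 CPM. Each knockout library was a little above the sibling of its number, and the 2 groups overlapped. The means were 38.8 ± 6.69 and 42.2 ± 6.46 CPM (SD, n = 2 each), with a log2 fold change of 0.12 ± 0.21 (edgeR adjusted p = 1, interval -0.45 to 0.70). Counting error alone gave intervals of -0.01 to 0.22 within replicate 3 and 0.03 to 0.26 within replicate 4. Without knockout replicate 3, and without sibling replicate 4, the fold change was -0.04. Neuron markers had a median of 0.15, with 9 of 10 above 0 and summed levels of 500 and 558 CPM for siblings against 573 and 610 CPM for knockouts. Markers of the endocrine pancreas had a median of 0.03, with 5 of 9 above 0, and the 3 measured pituitary and neuroendocrine markers one of 0.21. For replicate 4 over 3 these medians were 0.15, 0.35 and -0.15, and cpe was at -0.33. The part of these cell types in the value of cpe was not tested.

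The genes that work beside cpe were spread around 0. Of 22 measured genes for prohormone processing and secretory granules (23 were listed), 13 had log2 fold changes below 0 and 9 above, with a median of -0.05, a range of -0.32 to 0.52 and 0 called. The most abundant per length were qpct, which closes the front end of peptides as pyroglutamate, at 18.9 ± 1.35 CPM for siblings against 19.8 ± 2.64 CPM for knockouts, the amidating enzyme gene pam at 68.1 ± 0.706 and 63.7 ± 2.97 CPM, and the convertase gene pcsk5b at 29.7 ± 2.48 and 27.7 ± 0.0383 CPM. Of 56 peptide precursor genes listed 23 were measured, and the rest had no row under the symbol searched. Of the 23 measured, 11 were below 0 and 12 above, with a median of 0.00 and 0 called. Insulin, ins, was at 8.27 and 7.65 CPM for siblings against 2.58 and 7.62 CPM for knockouts, so that knockout replicate 3 alone was low. The calcitonin gene calca was at 12.6 and 7.33 against 13.4 and 7.59 CPM, and adcyap1b, for the neuropeptide PACAP, at 24.8 and 22.8 against 27.1 and 25.9 CPM.

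Carboxypeptidase D sits in the membrane of the trans-Golgi network and carries several carboxypeptidase domains in a row. The gene cpda (ENSDARG00000055648) had the lowest fold change of the set on counts. It was read at 332 and 298 counts for siblings against 203 and 334 counts for knockouts, or 12.9, 9.46, 7.83 and 9.68 CPM. Sibling replicate 3 was the highest library and knockout replicate 3 the lowest, and the replicate 4 libraries between them were nearly level. The log2 fold change was -0.35 ± 0.25 (edgeR adjusted p = 1, interval -1.03 to 0.32). Within replicate 3 it was -0.73, with a counting interval of -0.98 to -0.47, and within replicate 4 it was 0.03, with an interval of -0.20 to 0.26. Without sibling replicate 3 it was -0.11, and without knockout replicate 3 it was -0.21.

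The FPKM of cpda in the same library did not follow its count. Knockout replicate 3 had the lowest count of the 4 libraries and the highest FPKM, 1.69 against 1.43 in sibling replicate 3. On FPKM the log2 ratio within replicate 3 was 0.23, against -0.73 on counts, and limma on log2(FPKM + 1) gave 0.08 ± 0.21 (adjusted p = 1). Count divided by FPKM and by the library total gives the feature length that the FPKM implies. This was 9.03, 9.16 and 9.09 kb in sibling replicate 3, sibling replicate 4 and knockout replicate 4, and 4.86 kb in knockout replicate 3. The highest value was 1.88 times the lowest. Of 16400 features with at least 50 counts in every library 52, or 0.317%, had a ratio at least as large, and the median ratio was 1.04. For the other 6 genes the ratio was 1.03 to 1.16, the highest being that of cpm, where 6.29% of these features had a ratio at least as large. The value of cpda in knockout replicate 3, and with it the sign of the genotype difference, therefore differs between the deposited counts and the deposited FPKM.

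**Figure D4:**
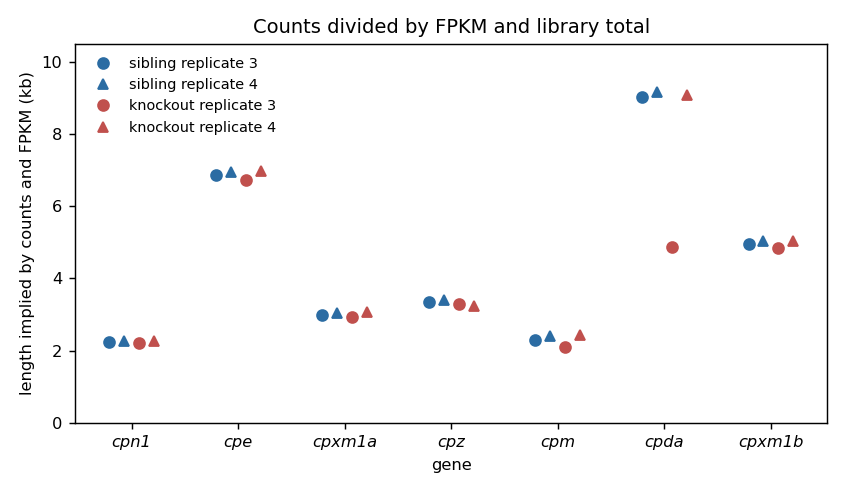
Feature length in kb implied by the deposited counts, FPKM and library totals, for each gene and library; each point is 1 library. The points of each gene lie close together, except for cpda, where knockout replicate 3 is at 4.86 kb and the other libraries are at 9.03 to 9.16 kb.

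More than 1 row of the table carries a carboxypeptidase D annotation. The assembled models MSTRG.33500.1 and MSTRG.33580.2, named after their values were seen, match isoform X2 of carboxypeptidase D. The first had 297 and 249 counts for siblings against 298 and 298 counts for knockouts, and the second had 382 and 328 against 371 and 378 counts. Neither was low in knockout replicate 3. Reads can be split between such rows, and the sources used here do not give how the counting handled this, so the level of carboxypeptidase D as a whole is uncertain.

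The matrix gene cpz (ENSDARG00000075521) had 326 and 390 counts for siblings against 437 and 400 counts for knockouts, or 12.7, 12.4, 16.9 and 11.6 CPM. Knockout replicate 3 was the highest library and knockout replicate 4 the lowest. The log2 fold change was 0.18 ± 0.25 (edgeR adjusted p = 1, interval -0.49 to 0.85), made of 0.41 within replicate 3 and -0.09 within replicate 4. Without knockout replicate 3 it was -0.11. A model annotated as carboxypeptidase Z, MSTRG.35042.1, had 150 and 354 counts for siblings against 238 and 430 for knockouts, and was likewise named after its values were seen. Among 35 measured Wnt ligands, frizzled receptors and frizzled-domain proteins 17 were below 0 and 18 above, with a median of 0.00 and 0 called. The Wnt carrier gene wls was at 105 ± 23.1 CPM for siblings against 108 ± 10.1 CPM for knockouts, the receptor gene fzd2 at 62.2 ± 11.9 and 62.2 ± 9.4 CPM, and the ligand gene wnt11 at 54.8 ± 9.93 and 53.1 ± 9.69 CPM.

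The discoidin-domain genes cpxm1a and cpxm1b had the 2 highest fold changes of the set on counts. In limma on log2(FPKM + 1) cpz lay between them, at 0.19 against 0.31 for cpxm1a and 0.15 for cpxm1b. cpxm1a (ENSDARG00000073716) was read at 411 and 357 counts for siblings against 544 and 470 counts for knockouts, or 16.0, 11.3, 21.0 and 13.6 CPM. Each knockout library was above the sibling of its number, but knockout replicate 4 was below sibling replicate 3. The log2 fold change was 0.34 ± 0.32 (edgeR adjusted p = 1, interval -0.51 to 1.19), and the counting intervals were 0.20 to 0.58 within replicate 3 and 0.06 to 0.47 within replicate 4. Without knockout replicate 3 it was -0.01.

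The paralog cpxm1b (ENSDARG00000098158) had 170 and 120 counts for siblings against 187 and 173 counts for knockouts, or 6.63, 3.81, 7.21 and 5.01 CPM. The order of libraries was that of cpxm1a. Its log2 fold change was 0.23 ± 0.37 (edgeR adjusted p = 1, interval -0.78 to 1.23), and it was -0.06 without knockout replicate 3 and -0.11 without sibling replicate 4. Each fit without a library sets 2 libraries against 1, so genotype and replicate number are mixed in it. A model annotated as carboxypeptidase X1, MSTRG.32935.1, picked with its values known, had 88 and 107 counts for siblings against 59 and 135 for knockouts. Paralogs can share reads, so the split between these rows is uncertain.

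Relatives of the CPX genes did not pass the test of genotype either. The CPX2-annotated gene si:ch1073-459j12.1, also picked with its values known, was at 51.6 and 72 CPM for siblings against 63.2 and 73.3 CPM for knockouts, and aebp1, coding for a collagen-binding protein with the same domains, at 42.9 and 38.4 against 44.8 and 38 CPM. Of 20 measured discoidin-domain genes 7 were below 0 and 13 above, with a median of 0.05 and 0 called. The 3 most abundant per length were the neuropilin genes nrp1a, at 46.4 ± 18.3 CPM for siblings against 42.9 ± 9.9 CPM for knockouts, and nrp2a, at 50.7 ± 14.7 and 52.3 ± 11.7 CPM, and the clotting factor gene f5 at 68.2 ± 25.6 and 44.6 ± 22.3 CPM. Fibroblast and fin mesenchyme markers had a median of 0.00 and summed levels of 7245 and 7368 CPM for siblings against 6695 and 7660 CPM for knockouts.

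The libraries were ordered more by replicate number than by genotype, in the set as in most features. In 5 of the 7 genes both libraries of 1 number lay above both libraries of the other, as in 65.7% of all features. cpe, cpxm1a and cpxm1b shared the same order, with knockout replicate 3 highest, then sibling replicate 3, knockout replicate 4 and sibling replicate 4, which 8.96% of all features have. cpn1 had the reverse split, with replicate 4 above replicate 3 in both genotypes. In an edgeR fit with a term for genotype, cpxm1a was lower in replicate 4 by a log2 difference of -0.56 ± 0.11 (adjusted p = 0.0376). It was 1 of 7 genes called lower, against 8.16% of all features, and 0 were called higher, against 6.99%. DESeq2 did not call cpxm1a (adjusted p = 0.155). The differences of cpxm1b (-0.66 ± 0.19, adjusted p = 0.078), cpe (-0.33 ± 0.10, adjusted p = 0.083) and cpn1 (0.28 ± 0.09, adjusted p = 0.109) did not pass in edgeR. Those of cpz, cpda and cpm were -0.29 ± 0.16, -0.08 ± 0.21 and -0.03 ± 0.19. This fit leaves 1 residual degree of freedom, and the labels do not say what the numbers mark.

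**Figure D5:**
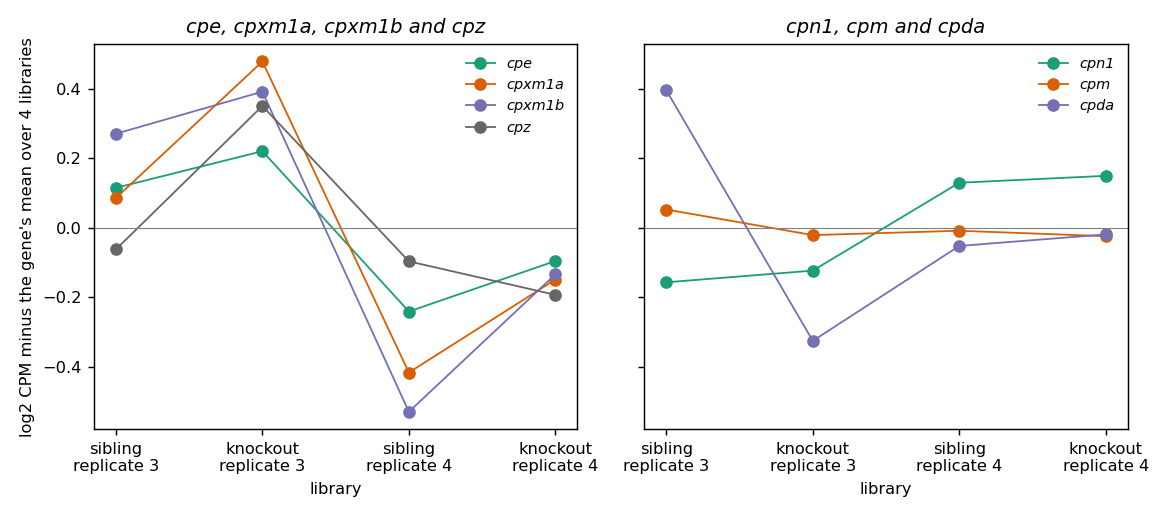
Log2 CPM of each gene minus its mean over the 4 libraries (vertical) against library (horizontal); each line is 1 gene, and lines only join the points of a gene. cpe, cpxm1a, cpxm1b and cpz are highest in knockout replicate 3, cpn1 is higher in both replicate 4 libraries, and cpda is lowest in knockout replicate 3.

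The rest of the M14 family had fold changes over a wider range than the 7 genes, some of them with larger errors. The SE was 1.79 for cpo, 1.04 for cpa4 and 0.86 for cpb1 and cpa6, though 0.17 for aebp1. In the 7 genes it was 0.37 at most. Of 20 listed relatives 12 were measured, and their log2 fold changes ran from -6.34 for cpa5 (± 1.17, edgeR adjusted p = 1; DESeq2 adjusted p = 1.85e-10) to 0.49 for cpa6, with 8 below 0, a median of -0.16 and 0 called by edgeR. Without sibling replicate 3 the median was 0.07, and without knockout replicate 3 it was -0.31. The digestive genes differed most between replicate numbers. cpb1 had 66.8 and 15.3 CPM for siblings against 30.5 and 11.2 CPM for knockouts, replicate 3 first, cpa4 was at 41.6 and 6.98 against 20.2 and 5.53 CPM, and cpo, whose human enzyme sits on the gut brush border, was at 19.4 and 0.698 against 11.6 and 0.753 CPM. The matrix enzyme gene cpa6 was at 11.5 and 2.35 CPM for siblings against 13.7 and 5.8 CPM for knockouts. Of the enzymes that trim glutamates from tubulin, agtpbp1 was at 23.7 and 19 against 22.4 and 16.5 CPM and agbl5 at 7.76 and 14.6 against 7.56 and 11.9 CPM. The related genes agbl1, agbl2 and agbl4 were at 4.72 to 5.97, 0.741 to 1.28 and 0.925 to 2.03 CPM. Between replicate numbers 1 of the 12 was called higher in replicate 4, against 6.99% of all features, and 5 were called lower, against 8.16%.

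The genes whose log2 CPM most resembled each carboxypeptidase over the 4 libraries were found by root mean square distance after centring, among 12222 named genes with a mean of at least 5 CPM. For cpn1 they were mbtps2 (0.006) and gmps (0.008). For cpe they were zcchc24 (0.008) and syngr2a (0.010), and for cpm srp54 (0.005) and chd1 (0.007). For cpxm1a they were metap2a (0.002) and fars2 (0.022), for cpxm1b ralba (0.024) and klhl24b (0.028), for cpz si:ch211-69b7.6 (0.008) and far1 (0.020), and for cpda si:dkey-246g23.4 (0.018) and si:ch73-335l21.4 (0.030). With 4 libraries and this many genes, close matches are a description of these libraries.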

How the data were processed

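Poly(A) RNA-seq libraries of 2 sibling and 2 double knockout samples were compared. Each sample's title gives its group and number. The authors deposited 1 table with raw read counts per feature, FPKM values scaled by feature length and library size, and, per the file headers, log2 fold changes and p-values of their own comparison. The submitters' processing notes name HISAT2 2.2.1, DESeq2 1.26.0 and the GRCz11 build. Which counter and annotation were used, and whether strand was used, is not given in the sources read here.

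Counts were tested as deposited with edgeR 4.0.16 (quasi-likelihood, TMM, filterByExpr, which removed 0 features) in R 4.3.3, with Benjamini-Hochberg adjustment over all 19924 features and a threshold of 0.05. CPM values carry TMM factors, and the gene symbol cpm is written in lower case. Intervals of fold changes use the degrees of freedom of the fit, and those within a replicate number are exact binomial 95% intervals of the 2 counts. The biological coefficient of variation was 32.6%. Libraries of a group were not copies (chi-square per degree of freedom 90 and 77.7). Alternatives were DESeq2 1.42.0, limma-voom, limma 3.58.1 on log2(FPKM + 1), scaling by RLE factors or by totals, no filter or at least 1 CPM in 2 libraries, a block for the replicate number, and each library left out. The tests were also run on simulated counts with known fold changes, and the outcome is not reported here.

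All 7 symbols matched 1 row each, and a table of gene names holds all 7 identifiers. Each deposited feature had a count of at least 26 in some library. Whether genes without a row were too low to be listed is not stated. The genes and lists were chosen with earlier results of these data known. Named genes are the 7 members, the other measured M14 genes, the 3 members of each further list with the highest mean FPKM, and the 2 nearest genes by pattern. Any other gene given with values is marked in the text as picked with its values known. No sequences are shown, and coordinates were not used here.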

Additional observations from a re-analysis of the deposited data

How the results depend on the processing

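The count of genes called between genotypes was 0 of 7 under RLE factors, total counts and both other filters. It was also 0 of 7 in DESeq2, limma-voom, limma on log2(FPKM + 1) and with the replicate block. The filters removed 0 features, so those fits repeat the main one. Over all features the count was 19 in DESeq2 and 3 with the replicate block. It was 0 in the main edgeR fit, with RLE factors, with total counts and in both limma fits. Where 0 of all features were called, 0 of 7 says nothing particular about the 7 genes. The labels do not say what a shared number marks, so the block is an alternative and no pairing is assumed. Deviations of same-numbered libraries were nevertheless correlated (0.619 over 19924 features). With the block, which leaves 1 residual degree of freedom, all 7 genes kept the sign of their fold change. Their SE ran from 0.09 for cpn1 to 0.21 for cpda, against 0.20 for cpn1 to 0.37 for cpxm1b without the block. On log2(FPKM + 1) the sign turned for cpda (0.08) and cpm (0.03). With a library left out the fold changes ranged from -0.04 to 0.31 for cpe, -0.11 to 0.18 for cpn1, -0.11 to 0.44 for cpz, -0.01 to 0.63 for cpxm1a and -0.11 to 0.68 for cpxm1b, from -0.56 to -0.11 for cpda and -0.07 to -0.02 for cpm, and from -1.46 to -0.10 for zgc:153913 and -1.92 to -0.72 for cpb2. Between replicate numbers the main edgeR fit called 1 of the 7 genes and 3018 of all 19924 features. DESeq2 called 0 of the 7 and 2112 of all features. Scaling by totals in edgeR called 3 of the 7 and 3910 of all features, with cpe (-0.40, adjusted p = 0.0485) and cpxm1b (-0.73, adjusted p = 0.0456) added. List medians with a library left out ranged from -0.10 to 0.15 for prohormone processing, -0.26 to 0.20 for peptide precursors, -0.14 to 0.26 for Wnt and frizzled genes and -0.14 to 0.14 for discoidin-domain genes. The cause of these differences was not tested. At 119 to 158 counts per library, counting error alone left cpm uncertain by -0.45 to 0.30 within replicate 3.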
